A study of Mus musculus with 6 samples.

Results

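The 10 genes described here are the Notch receptors Notch1, Notch2 and Notch3, the ligands Jag1, Jag2 and Dll1, and the target genes Hes1, Hey1, Heyl and Nrarp. They were chosen by gene symbol, with earlier results of these data known, and are 10 of the 43043 genes listed for each sample. In the mouse melanoma line D4M-3A, Dll1 was 2.66-fold higher and Jag1 1.19-fold higher after knockout of Nfkbiz. Notch2 and Hes1 were lower, at 0.700 and 0.694 times the control level. Notch1, Notch3 and Nrarp did not pass the test, and Jag2, Hey1 and Heyl had too few reads to be tested.

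Notch signaling passes between cells that touch. A Delta-like or Jagged ligand on one cell binds a Notch receptor on its neighbour, the receptor is cut by ADAM proteases and then by γ-secretase, and the freed intracellular domain enters the nucleus. There it joins the DNA-binding protein RBPJ and a Mastermind coactivator and switches on genes of the HES and HEY repressor families, as well as Nrarp, a feedback inhibitor. In the melanocyte lineage, the pathway is known for maintaining melanocyte stem cells through Hes1, and Notch receptors have been studied as growth regulators in melanoma.

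RNA of 3 Ctrl samples was sequenced and compared with that of 3 Nfkbiz KO samples. Ctrl cells had received an empty lentiviral CRISPR-Cas9 construct, and Nfkbiz KO cells a construct against Nfkbiz, the gene of the NF-κB cofactor IκBζ. Both were grown in RPMI-1640 with 10% FCS and antibiotics, without any stimulus named in the labels. The methods call the replicates independent biological replicates, but whether the knockout cells were a clone or a pool is not given in the sources used here. If the replicates came from the same cell stock, p-values measure the spread between these samples only. In this bulk RNA, fewer cells of a type and less RNA per cell cannot be told apart.

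The targeted gene had 69.1, 75.2 and 63.4 TPM (a level scaled to transcript length and library size) in Ctrl replicates 1, 2 and 3, against 34.8, 34.7 and 35.1 TPM in Nfkbiz KO. TPM counts reads on edited transcripts too. Between 32219900 and 44927203 reads were counted on genes per sample, so that a count of 0 allows up to 0.0668 to 0.0931 CPM (reads scaled to library size), a limit that covers counting error only. Ctrl replicate 3 stood apart by transcript length: the 25% longest transcripts had a median deviation from the mean of all samples of -0.11 on the log2 CPM scale, and the 25% shortest one of 0.13. In the other 5 samples these medians lay between -0.011 and 0.041 and between -0.049 and 0.043. The values of Notch1, Notch2, Hes1, Hes6 and the receptor sum are given with and without it. Of 8 melanocyte lineage markers, Sox10 and Tyr had 0 reads in every sample, Mitf had 60 to 115 reads, and the summed level was 1.11 to 1.74 TPM in Ctrl against 1.30 to 1.70 TPM in Nfkbiz KO, so the defining markers of the lineage were absent or near 0. The platelet-derived growth factor receptor genes Pdgfra and Pdgfrb had mean levels of 36.7 and 46.6 TPM in Ctrl, and the summed level of the 6 fibroblast and mural markers that include them was 139 to 157 TPM in Ctrl against 136 to 147 TPM in Nfkbiz KO.

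A promoter window, 250 bases before and 50 bases after a transcription start, was found for 7 of the 10 genes in RefSeq (GRCm38.p6), in 8 windows, since Dll1 had a window at each of its starts. Hes1, Hey1 and Heyl had no entry. Searched on both strands, the letters TGGGAA, the core of the RBPJ motif, were in 0 of the 8 windows and in 25.6% of all 32851 windows. The letters CACGTG, an E-box, were in the window of Nrarp alone and in 7.15% of all windows. An NF-κB consensus was in the windows of Notch2 and Nrarp and in 4.51% of all windows, and it can share the letters GGGAA with the RBPJ core. The NF-κB consensus was added to the search after the values had been seen, and its relation to any change was not tested. Dll1 and Jag1, which were called, had no match in their windows, and Nrarp, with a match, was not called. The matches of Notch2 and Nrarp are shown with 10 bases on each side. They were placed in GRCm39 by exact match of the RefSeq window, and capitals mark the consensus match.
Notch2, chr3:97920732-97920761, plus strand: ttctttctgcGGGAAACCCCtgggcgcgcg
Nrarp, chr2:25070539-25070568, plus strand: cagtggtgctGGAAAACCCCcgaggccttc
The match began 112 bases before the RefSeq start of Notch2 and 221 bases before that of Nrarp, and both stretches lie outside annotated exons. A match is a description of letters and not a bound site.

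**Figure D1:**
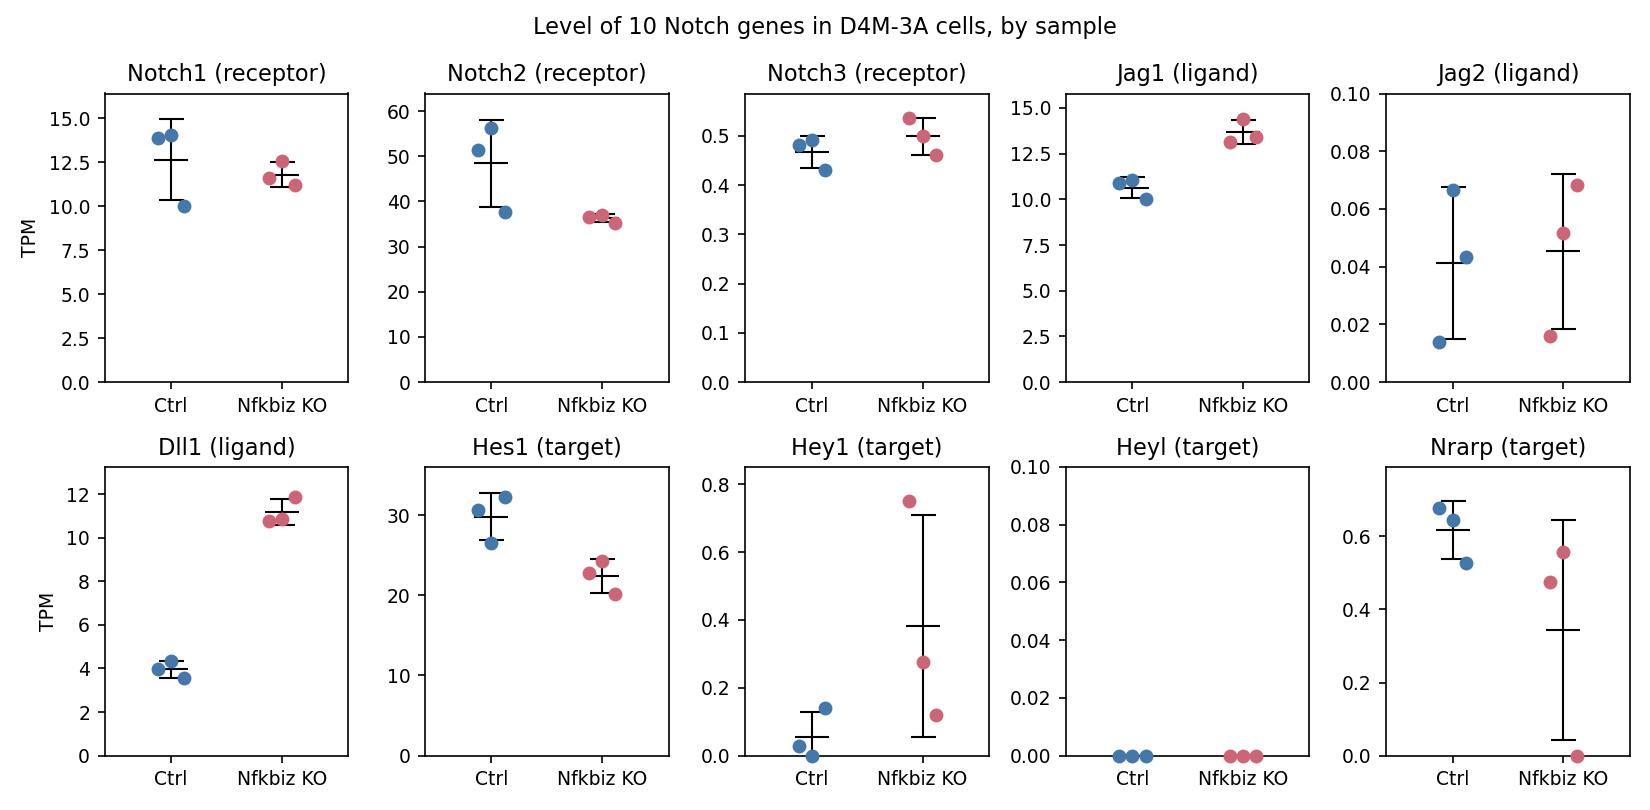
Level of each of the 10 genes in TPM (y axis, from 0, its own scale in each panel) in the 3 Ctrl samples (blue) and the 3 Nfkbiz KO samples (red); points are samples, the bar is the mean and the whiskers are the SD. The points of the groups are apart for Dll1, at 3.55 to 4.35 against 10.8 to 11.8 TPM, and for Jag1 and Hes1, while those of Notch1 and Notch3 overlap and Heyl is at 0 throughout.

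Among the ligands, Dll1 changed most. Dll1, a Delta-like ligand, lies on the minus strand of chromosome 17, from 15587276 to 15597134 in GRCm39. It had a level of 3.96, 4.35 and 3.55 TPM in Ctrl replicates 1, 2 and 3, and 10.8, 10.9 and 11.8 TPM in Nfkbiz KO replicates 1, 2 and 3. Every Nfkbiz KO sample was thus above every Ctrl sample, and all reads on the gene, 189 to 677 per sample, were unique. The mean level rose from 3.95 ± 0.397 to 11.2 ± 0.596 TPM (SD, n = 3 each). On read counts, the log2 fold change was 1.41 (standard error 0.098, 95% interval 1.20 to 1.63, adjusted p = 3.1e-07 edgeR quasi-likelihood test, Benjamini-Hochberg adjustment across the genes tested), a 2.66-fold rise with an interval of 2.30 to 3.09. Dll1 was the only one of the 10 genes to pass the thresholds of the study, which ask for a fold above 2 and an adjusted p up to 0.05 together with a difference above 4, taken here as mean TPM. Its difference was 7.21 TPM, and 1.79% of all genes tested passed these thresholds in either direction, 0.756% as higher and 1.03% as lower. With each sample left out in turn, its log2 fold change stayed between 1.35 and 1.45. Since strand was not used in counting, reads of Dll1 and of Fam120b, whose exons overlap it on the plus strand, cannot be told apart where they share bases; Fam120b itself had a log2 fold change of 0.12 (edgeR adjusted p = 0.24).

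Jag1, a Jagged-type ligand on chromosome 2 from 136923373 to 136958693 (minus strand), moved the same way by less. Ctrl replicates 1, 2 and 3 had 10.9, 11.04 and 10.0 TPM and Nfkbiz KO replicates 13.2, 14.4 and 13.4 TPM, so the groups did not overlap. The log2 fold change of its read counts was 0.25 (standard error 0.068, 95% interval 0.098 to 0.39, adjusted p = 0.013, same edgeR test). Without Nfkbiz KO replicate 2, the sample with the highest level, it was 0.21 with an adjusted p of 0.081 in edgeR, and the call was lost. Jag2, the other Jagged ligand, had 3, 5 and 4 reads in Ctrl against 1, 4 and 6 in Nfkbiz KO, at most 0.0682 TPM in any sample, and was not tested. Jag2 is on chromosome 12 from 112871421 to 112893437.

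Summed over Dll1, Dll3, Dll4, Jag1 and Jag2, ligand transcripts came to 14.6 ± 0.949 TPM in Ctrl against 24.96 ± 0.708 TPM in Nfkbiz KO (SD over 3 samples). This sum was formed after the values had been seen. TPM ran somewhat higher in Nfkbiz KO over all genes tested, with a median log2 fold change of 0.063 with limma on log2(TPM + 1), against -0.015 by edgeR on read counts. Levels and sums in TPM carry this shift. Dll1 made up 26.9 ± 1.02% of it in Ctrl and 44.7 ± 1.97% in Nfkbiz KO, and Jag1 72.7 ± 1.16% and 54.7 ± 1.87%. Jag1 therefore was the most abundant ligand transcript in all 6 samples. Endothelial cells are a cell type in which Dll4 and Notch4 are known to act. The summed level of 6 endothelial markers was 0.550 to 0.827 TPM in Ctrl against 1.32 to 1.85 TPM in Nfkbiz KO. Cdh5 made up most of it, with a mean of 0.548 TPM in Ctrl against 1.54 TPM in Nfkbiz KO. Of the 2 markers tested, Cdh5 was higher (log2 fold change 1.34, edgeR adjusted p = 0.0023) and Pecam1 was not called at -0.16 (edgeR adjusted p = 0.88). Tie1, a defining endothelial marker, had 0 reads in all 6 samples, and Emcn and Pecam1 had at most 2 and 19 reads.

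**Figure D2:**
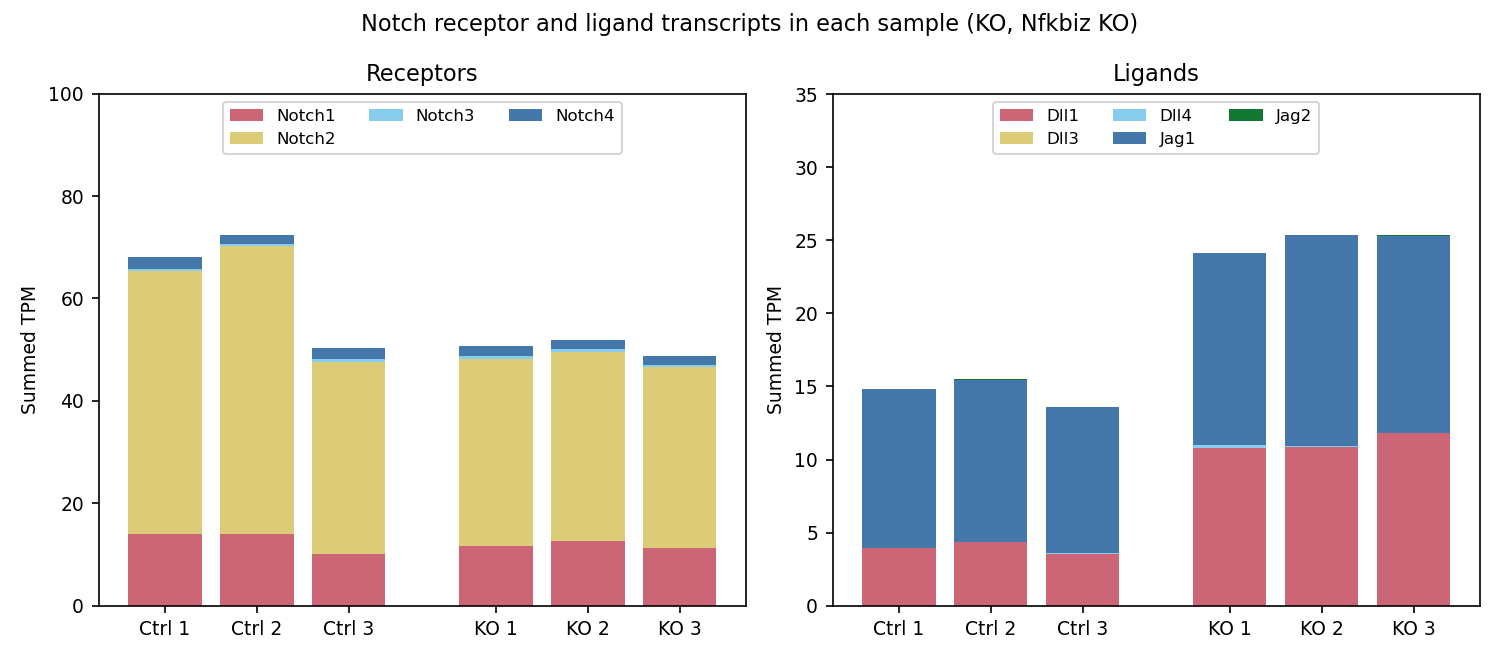
Summed TPM (y axis, from 0) of receptor transcripts (left) and ligand transcripts (right) in each of the 6 samples, with each gene's part of the bar in its own color. The ligand bars stand at 13.6 to 15.5 TPM in Ctrl and at 24.1 to 25.4 TPM in Nfkbiz KO with a larger Dll1 part, whereas the receptor bar of Ctrl replicate 3, at 50.3 TPM, is within the 48.7 to 51.8 TPM of Nfkbiz KO.

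Notch2 was the most abundant of the 10 genes in both groups. The gene is on chromosome 3 from 97920800 to 98057677, on the plus strand. Ctrl replicates 1, 2 and 3 had 51.4, 56.1 and 37.7 TPM, and Nfkbiz KO replicates 36.7, 37.0 and 35.3 TPM. The groups did not overlap, but Ctrl replicate 3 was just above the highest Nfkbiz KO sample and far below the other Ctrl samples. Scaled to depth alone, the read counts, which also hold reads outside exons, were 177, 182 and 136 CPM in Ctrl and 115, 117 and 114 CPM in Nfkbiz KO. The log2 fold change of read counts was -0.51 (standard error 0.090, 95% interval -0.71 to -0.32, edgeR adjusted p = 0.00074), and without Ctrl replicate 3 it was -0.64 (adjusted p = 5.1e-08 in edgeR). Its transcript, at 10554 bases, is longer than 97.4% of those tested, the property by which Ctrl replicate 3 stood apart, and with a per-sample length trend removed the value was -0.63. On log2(TPM + 1) with limma, however, the log2 fold change was -0.39 and the adjusted p 0.11, so the call was lost where both the values and the test differed.

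Notch1 lies on chromosome 2 from 26347915 to 26406675 (minus strand) and showed the same spread in Ctrl. Its level was 13.9, 14.1 and 10.0 TPM in Ctrl replicates 1, 2 and 3 and 11.6, 12.6 and 11.2 TPM in Nfkbiz KO. Ctrl replicate 3 was the lowest of all 6 samples and the other Ctrl samples were the highest, so the groups overlapped (two-sided exact permutation test on log2 CPM, p = 0.4, with 0.1 the smallest p that 3 samples against 3 allow). The log2 fold change was -0.20 (standard error 0.095, 95% interval -0.41 to 0.0046, edgeR adjusted p = 0.12). Without Ctrl replicate 3 it was -0.32 with an adjusted p of 0.00071 in edgeR, and with the length trend removed -0.30 with an adjusted p of 0.0046. Of the reads on Notch1, 89.1% were unique to it, and its exons overlap 0610009E02Rik on the plus strand (log2 fold change -0.43, edgeR adjusted p = 0.17). The call of Notch1 therefore differs with and without this control library.

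Notch3, on chromosome 17 from 32339794 to 32385893, was expressed at 0.430 to 0.536 TPM over all samples, with 44 to 52 reads in each. Its log2 fold change of -0.032 had a 95% interval of -0.52 to 0.46 (edgeR adjusted p = 0.93), which is 0.697 to 1.37 times the Ctrl level. Changes within that range cannot be told from no change here. Notch4, the receptor outside the 10 genes, had 2.06 TPM in Ctrl against 1.78 TPM in Nfkbiz KO (log2 fold change -0.36, edgeR adjusted p = 0.069). Receptor transcripts together came to 63.6 ± 11.7 TPM in Ctrl against 50.4 ± 1.56 TPM in Nfkbiz KO (SD over 3 samples). Without Ctrl replicate 3, an exclusion made after seeing the data, the Ctrl sum was 70.3 TPM, the mean of 68.0 and 72.5 TPM, both above every Nfkbiz KO sample. Over all samples, Notch2 held 76.0 ± 1.31% of that sum in Ctrl and 72.1 ± 0.605% in Nfkbiz KO, and Notch1 19.9 ± 0.515% and 23.4 ± 0.767%. These shares did not overlap between the groups even where the sums did.

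Hes1 is a repressor of the HES family and the best known direct target of the pathway. The gene is on chromosome 16 from 29882134 to 29886643, on the plus strand. In Ctrl replicates 1, 2 and 3 its level was 30.6, 26.5 and 32.2 TPM, and in Nfkbiz KO replicates 22.8, 24.3 and 20.1 TPM. All Nfkbiz KO samples were below all Ctrl samples, and the mean fell from 29.8 ± 2.92 to 22.4 ± 2.10 TPM (SD, n = 3 each). On 423 to 891 reads per sample, all unique by position, the log2 fold change was -0.53 (standard error 0.11, 95% interval -0.77 to -0.29, edgeR adjusted p = 0.0027). The call held in each of 17 alternatives, with values between -0.63 and -0.40. Without Ctrl replicate 3, the sample with the highest level, it was -0.42 (edgeR adjusted p = 0.0053). The transcript has a GC content of 61.7%, above 98.6% of the transcripts tested, and with a per-sample GC trend removed the value was -0.40.

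The 3 remaining targets were scarce. Nrarp, whose product binds the Notch intracellular domain and limits its action, had 18, 18 and 18 reads in Ctrl against 11, 16 and 0 in Nfkbiz KO. Only 40.7% of these were unique, so part may belong to similar sequences elsewhere. Its log2 fold change of -0.99 came with a standard error of 0.65 and a 95% interval of -2.41 to 0.42 (edgeR adjusted p = 0.26), and without Nfkbiz KO replicate 3, the library at 0, it was -0.34. Hey1, a HEY family repressor, had 3, 0 and 6 reads in Ctrl against 22, 10 and 5 in Nfkbiz KO. The groups overlapped, the gene was removed by the filter on low counts, and its level was at most 0.750 TPM. Left in the test, its log2 fold change was 2.08 (standard error 0.73, edgeR adjusted p = 0.022). Heyl, another HEY family repressor, had 0 reads in all 6 samples. Nrarp is on chromosome 2 from 25070770 to 25073351, Hey1 on chromosome 3 from 8726956 to 8732385 and Heyl on chromosome 4 from 123127349 to 123143682.

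Of the 7 genes tested, 4 were called at an adjusted p of 0.05 or less, 2 higher and 2 lower (edgeR, Benjamini-Hochberg adjustment). Among all 14419 genes tested, 36.6% were called, 18.2% higher and 18.4% lower. Between the groups, 5 of the 7 did not overlap on log2 CPM of total reads, against 48.4% of all genes. Nrarp, with 40.7% unique reads, was one of these 5. The median log2 fold change of the 7 was -0.20, with -0.015 over all genes. A change of 1.5-fold or more was reached by 1 called gene, Dll1, against 11.6% of all genes, 5.42% higher and 6.16% lower. The called share of the 7, at 57.1%, is given beside the background as a description only. These genes were chosen with earlier results of these data known, so the difference from the background is not a test.

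**Figure D3:**
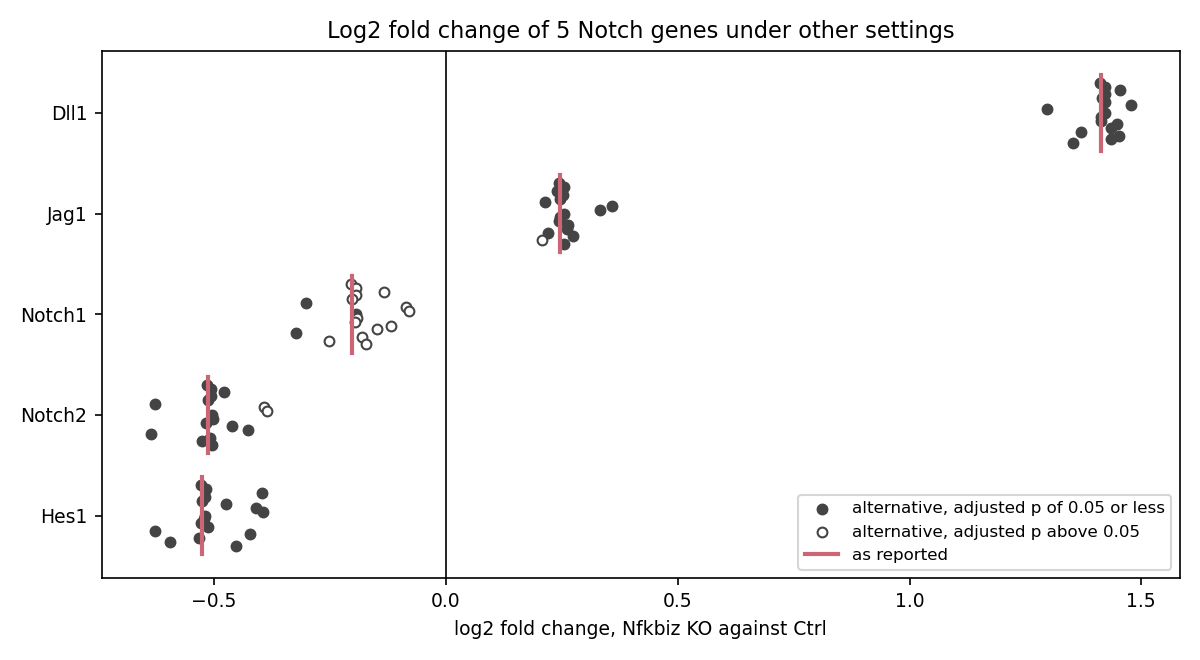
Log2 fold change (x axis, Nfkbiz KO against Ctrl) of Dll1, Jag1, Notch1, Notch2 and Hes1 under 17 alternative settings each; the red line is the value as reported, filled points have an adjusted p of 0.05 or less and open points one above it. The points of Dll1 lie between 1.30 and 1.48 and those of Hes1 between -0.63 and -0.40, all filled, while 14 of the 17 points of Notch1 are open.

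By level in TPM, the order in Ctrl was Notch2, Hes1, Notch1, Jag1, Dll1, Nrarp, Notch3, Hey1, Jag2 and Heyl. Neighbours in that order did not overlap, except Notch1 with Jag1 and Hey1 with Jag2. In Nfkbiz KO, Jag1 came before Notch1, and Dll1 overlapped with Notch1. Below them Notch3, Hey1 and Nrarp each overlapped with the next in the order, and Jag2 did not overlap with Heyl. The ligand Dll1, at 3.95 against 12.7 TPM for Notch1 in Ctrl, thus reached a level of 11.2 against 11.8 TPM in Nfkbiz KO.

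A list of 65 other genes of the pathway was read off the same test. Of these 54 were tested and 22 called (40.7%), 12 of them higher and 10 lower. This is near the share over all genes tested, of which 36.6% were called, 18.2% higher and 18.4% lower. The median of the 54 was 0.031 on the log2 scale. With limma on log2(TPM + 1), 11 were higher and 4 lower, a shift toward higher calls that was also seen over all genes, with 2627 higher and 2647 lower by edgeR against 3004 and 1327 by limma. None of the 54 passed the thresholds of the study, a count of 0 in edgeR and in DESeq2, against 1.79% of all genes tested in edgeR. With an unadjusted edgeR p under 0.05 and the same fold and difference cuts, the count was also 0. Without those cuts, 28 had an unadjusted p under 0.05 in edgeR, and the share of all genes at that limit was not computed.

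Among the 9 genes of the nuclear complex, 4 were called by edgeR (44.4%, against 36.6% of all genes tested). All 4 were higher, namely Kat2b (log2 fold change 0.48), Maml2 (0.41), Crebbp (0.39) and Kat2a (0.17), which were named after their values had been seen. Maml2 is a Mastermind coactivator, and Kat2b, Crebbp and Kat2a are acetyltransferases. Maml3, also named after its values had been seen, was at -0.25 and not called (edgeR adjusted p = 0.058). Rbpj, the DNA-binding partner and the most abundant of the group, had 149 ± 17.3 TPM in Ctrl against 163 ± 3.27 TPM in Nfkbiz KO, and its log2 fold change of 0.039 was not called (95% interval -0.098 to 0.18). Of 14 co-repressor genes tested, 2 were higher and 2 lower (28.6% called, against 36.6% of all genes tested). Tle2, a Groucho-type co-repressor that HES proteins recruit, was at 3.41, 3.47 and 3.36 TPM in Ctrl against 1.81, 1.76 and 1.51 TPM in Nfkbiz KO. These groups were well apart, and its log2 fold change of -1.14 (standard error 0.12, edgeR adjusted p = 1.3e-05) was the largest fall on the list. Its exons overlap those of Tle6 on the opposite strand, which had a log2 fold change of -0.98 (edgeR adjusted p = 1.1e-05), and without strand the reads they share cannot be told apart. Tle1, of the same family, had a log2 fold change of 0.32 in the other direction. The histone deacetylase gene Hdac1, with the highest level of this role, was not called at -0.12 (95% interval -0.24 to -0.0077, edgeR adjusted p = 0.091).

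Receptor cleavage was represented by 10 genes, of which 1 was higher and 3 lower (40% called, against 36.6% of all genes tested). The γ-secretase subunit gene Psenen had a log2 fold change of -0.51 and Aph1a, another subunit, one of -0.20, whereas its homologue Aph1b was at 0.42. Adam17, a protease that can cut Notch, was lower by a log2 fold change of -0.18. Ncstn, which encodes the γ-secretase subunit nicastrin and had the highest level of this role, was not called at 0.023 (95% interval -0.082 to 0.13). Of 4 tested genes that put sugars on the receptor, 75% were called, against 36.6% of all genes tested. Lfng (-0.47) and Rfng (-0.26), the Fringe enzymes, were lower, and Pofut1 (0.22), which adds O-fucose, was higher. Poglut1, which adds O-glucose, was not called at 0.0037 (95% interval -0.12 to 0.13). Psenen, Lfng and the other called genes of these roles were likewise named after their values had been seen.

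Among 14 tested genes of endocytosis and turnover, 4 were higher and 2 lower (42.9% called, against 36.6% of all genes tested). Dtx3l, an E3 ubiquitin ligase of the Deltex family, had 66.1, 72.0 and 62.2 TPM in Ctrl against 119, 121 and 119 TPM in Nfkbiz KO (log2 fold change 0.74, standard error 0.050, edgeR adjusted p = 2.5e-07). Parp9, whose exons overlap it on the opposite strand, moved with it at 0.51 (edgeR adjusted p = 9.1e-06), and shared reads cannot be assigned without strand. Neurl1b, an E3 ligase that acts on Notch ligands, was at 0.568, 0.658 and 0.610 TPM in Ctrl against 1.32, 1.42 and 1.44 TPM in Nfkbiz KO. Its groups were apart at this low level, and its log2 fold change was 1.01 (standard error 0.18, edgeR adjusted p = 0.00096). Mib1, the Mind bomb ligase that drives ligand endocytosis, was higher by a log2 fold change of 0.28, and Aak1, a kinase of endocytosis, by 0.45. Numb (-0.25) and Numbl (-0.38), related inhibitors of Notch receptors, were both lower, and Nedd4, an E3 ligase with the highest level of this role, was not called at -0.031 (95% interval -0.17 to 0.11). The genes of this paragraph other than Dtx3l, Neurl1b and Nedd4 were named after their values had been seen.

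Hes6 was the only one of the 7 other HES and HEY genes with enough reads to be tested. Ctrl replicates 1, 2 and 3 had 22.4, 21.6 and 25.4 TPM, and Nfkbiz KO replicates 15.4, 18.5 and 17.6 TPM. Again the groups did not overlap, and the log2 fold change of -0.53 (standard error 0.11, edgeR adjusted p = 0.003) was about that of Hes1. Without Ctrl replicate 3, the sample with the highest level of Hes6, it was -0.42 (edgeR adjusted p = 0.0071). HES6 is known to counter HES1 rather than to act as it does. Of the 5 other receptor and ligand genes, 2 were tested, Notch4 and Dlk2, a Delta-like protein with 5.74 TPM in Ctrl against 6.46 TPM in Nfkbiz KO. Neither was called by edgeR or DESeq2, while 1 of them, Notch4, had an unadjusted p under 0.05.

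**Figure D4:**
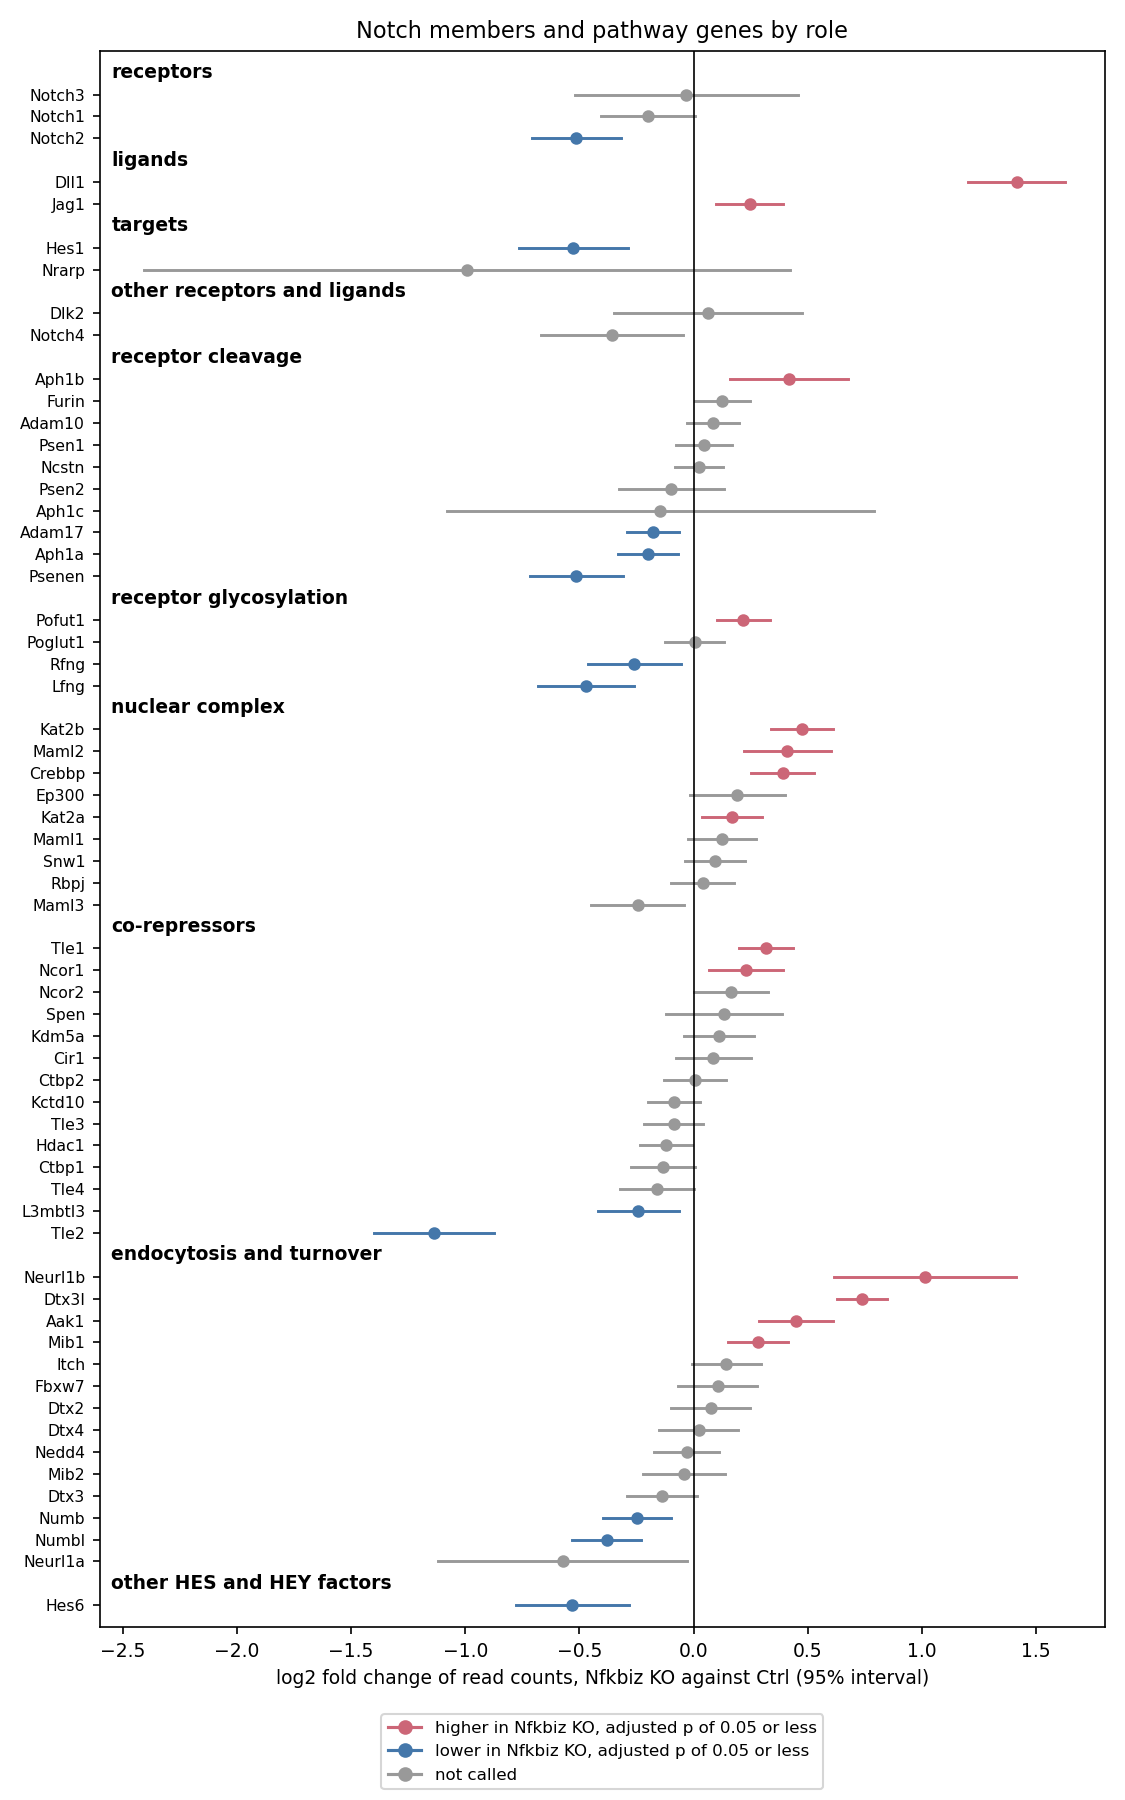
Log2 fold change of read counts in Nfkbiz KO against Ctrl (x axis, lines are 95% intervals) for the tested genes of the Notch pathway, grouped by role (y axis). Red marks genes called higher, blue genes called lower and gray genes not called; Dll1 at 1.41 and Neurl1b at 1.01 lie farthest to the right and Tle2 at -1.14 is the called gene farthest to the left.

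Over the 6 samples, the genes whose log2 CPM followed that of Dll1 most closely, among 11884 genes with a mean level of 1 TPM or more, were Fam110c, Man1c1, Fam171a1, Phactr1 and Sdc2 (Pearson's r from 0.9985 to 0.9996). These 6 points fall into 2 groups, so r mostly follows the group difference and is given without a test. Phactr1, a regulator of actin and phosphatase 1, was at 0.553 TPM in Ctrl against 2.16 TPM in Nfkbiz KO, and Sdc2, the heparan sulfate proteoglycan syndecan-2, at 116 and 158 TPM.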

How the data were processed

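RNA of D4M-3A cells was analysed in 3 Ctrl and 3 Nfkbiz KO samples, grouped by sample title. The authors sequenced paired-end libraries on a NovaSeq instrument and mapped them in CLC Genomics Workbench, to GRCm39 according to the methods, whereas the submitters' processing notes name GRCm38. A read could map to several places, and strand was not used. They deposited, per gene, raw read counts (total and unique) and other values, namely TPM and RPKM from exons, with decimal commas that were converted here. RPKM was not used.

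Total counts were normalized by TMM and tested with edgeR 4.0.16 (R 4.3.3, quasi-likelihood, group as the only term) after filterByExpr (minimum count 10, minimum total 15), with Benjamini-Hochberg adjustment over 14419 genes. The common dispersion was 0.00518. A standard error is the log2 fold change divided by the square root of F. Overlap used log2 CPM with a prior count of 2. The procedure was also run on simulated counts in which few genes changed and no length or GC trend was present. These data differ on both points, so that run does not cover them. Alternatives were DESeq2 1.42.0, limma 3.58.1 on log2(TPM + 1) and log2(TPM + 0.1), RLE factors, the likelihood-ratio test of edgeR, a looser and a stricter filter, unique reads, a replicate block and each sample left out. Removal of length and GC trends, the ligand sum, the NF-κB motif and the likeness to Hes1 were added after seeing the data. The members and lists were chosen with earlier results of these data known. Named genes are the 10 members, list genes called with a fold change of 1.5 or more, the most abundant tested gene of each role, the 5 genes most like the 2 members with the largest and the smallest log2 fold change, and Nfkbiz. Where others are named, their values had been seen. Depth was 32219900 to 44927203 reads, 96.5% to 96.9% unique, with TMM factors of 0.978 to 1.011. Coordinates and transcript lengths come from GENCODE for GRCm39, matched by symbol for 96.2% of the genes tested.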

Additional observations from a re-analysis of the deposited data

How the results depend on the processing

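Under the thresholds of the study, 258 genes, 1 of the 10 Notch genes and 0 of the pathway list were called. With each sample left out in turn, 3798 to 5533 genes, 3 to 5 Notch genes and 15 to 25 list genes were called, and with the other alternatives 4226 to 5638, 3 to 6 and 15 to 24. Nfkbiz, Dll1, Hes1, Hes6, Tle2, Dtx3l and Neurl1b kept their direction and call under all 17 alternatives each. Jag1 was not called without Nfkbiz KO replicate 2. Notch2 was not called with limma on log2(TPM + 1) or log2(TPM + 0.1), at -0.39 with an adjusted p of 0.11 in each, and the cause was not tested. Notch1 was called in 3 alternatives, without Ctrl replicate 3, with the length trend removed and without the filter on low counts (-0.19, edgeR adjusted p = 0.02). Of the uncalled genes followed here, Notch3, Dlk2, Poglut1, Rbpj and Nedd4 changed sign in some alternatives, while Notch1, Nrarp, Hdac1 and Ncstn did not. Notch3 was at 0.070 with the GC trend removed and 0.077 and 0.030 with limma at pseudocounts of 0.1 and 1, and between -0.12 and 0.040 with a sample left out. Poglut1 was at -0.032 with the GC and -0.0056 with the length trend removed, Rbpj at -0.0012 with the length trend removed, and Nedd4 at 0.070 and 0.069 with limma. With a sample left out, Dlk2 ranged from -0.079 to 0.23, Poglut1 from -0.019 to 0.043, Rbpj from -0.012 to 0.10 and Nedd4 from -0.090 to 0.031. The causes were not tested.

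Deviations of same-numbered samples from their group means had correlations of 0.037, -0.023 and 0.026, so no strong shared deviation was seen. With 3 samples per group, this cannot show whether same-numbered samples were handled together. With the replicate number as a block, 5087 genes were called (4945 shared with the 5274 without it), 4 Notch genes (4 shared) and 24 list genes (22 shared). The blocked log2 fold change was -0.98 for Nfkbiz. Depth limits Jag2, Hey1, Heyl and Nrarp, with at most 22 reads in any sample, and Notch3, with at most 52.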

Other observations

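The unique reads on Nrarp were 6, 7 and 8 in Ctrl and 7, 5 and 0 in Nfkbiz KO. On unique reads the groups thus overlapped, with and without Nfkbiz KO replicate 3. Over the 6 samples, the genes whose log2 CPM was most like that of Nrarp were Zfp354a, Gm9888, Cntnap1, the gene listed as ENSMUSG00000120690 and Gm28370, with Pearson's r from 0.951 to 0.974. This likeness rests on the library in which Nrarp had 0 reads, and it is given without a test. None of these 5 genes was called in edgeR, with adjusted p from 0.1 to 0.55.

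For Hes1, the genes most like it over the 6 samples were Med30, Fam118b, Prelid1, Tedc1 and Tmem160, with Pearson's r from 0.995 to 0.997. Med30, a subunit of the Mediator complex, was at 58.7 TPM in Ctrl against 49.1 TPM in Nfkbiz KO (log2 fold change -0.33, edgeR adjusted p = 0.0077). Prelid1, a carrier of phosphatidic acid in mitochondria, was at 472 and 395 TPM (log2 fold change -0.36, edgeR adjusted p = 0.0025). Hes1 was added to this comparison after its values had been seen.

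The summed level of 6 leukocyte markers was 0.0303 to 0.222 TPM in Ctrl against 0.0304 to 0.134 TPM in Nfkbiz KO, with Cd3e at 0 reads. That of 5 keratinocyte markers was 2.54 to 3.49 TPM and 2.47 to 2.52 TPM, nearly all from Krt10, with Krt1 at 0 reads. Among the fibroblast and mural markers, Dcn and Acta2 were lower (log2 fold changes -0.79 and -0.43) and Rgs5 was higher (1.35), all by edgeR. Rgs5 had only 9 to 34 reads per sample.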
